A study of Mus musculus with 16 samples.

Results

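The energy-sensing receptor genes, which let brain cells read the state of the body's energy stores, were taken by symbol as 10 of the 28683 genes listed in at least 1 library, namely *Lepr*, *Insr*, *Irs2*, *Ghsr*, *Mc3r*, *Mc4r*, *Npy1r*, *Npy2r*, *Npy5r* and *Glp1r*. Of these, 9 code for receptors, and *Irs2* codes for an adaptor protein that carries the signal of the insulin receptor into the cell. They were chosen with results of these data known, and *Npy2r* was selected on its level in neurons of *Esr1* cKO mice, so that its difference between genotypes in neurons is a description without a test.

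Leptin from fat and insulin from the pancreas report energy stores to the hypothalamus, while ghrelin from the stomach and glucagon-like peptide 1 (GLP-1) from the gut report on meals. In the arcuate nucleus, *Pomc* neurons release melanocortin peptides, which bind the receptors MC3R and MC4R and reduce feeding. *Agrp* neurons release AGRP, which blocks these receptors, together with neuropeptide Y (NPY). NPY acts on the receptors Y1, Y2 and Y5, which are coupled to inhibitory G proteins, and Y2 is known as a presynaptic receptor that restrains transmitter release.

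Single cells of the hypothalamus and preoptic area were profiled by Drop-seq, which tags every transcript copy with a barcode of its cell and a molecular tag (UMI, unique molecular identifier), in 16 female mice, 1 library per mouse. The mice were on a CD-1;129P2 mixed background and were 8 to 10 weeks old when injections began. They received 28 daily subcutaneous injections of tamoxifen, a ligand of estrogen receptors, at 0.1 mg/kg, or of corn oil with ethanol as the vehicle. *Esr1* cKO mice carried the floxed *Esr1* allele, which encodes estrogen receptor alpha, and a BAC transgene that drives Cre from *Nkx2-1*, so that the gene is lost only from cells of the *Nkx2-1* lineage, and the mice called wild-type were littermates without Cre. Oil was given to 3 wild-type and 4 *Esr1* cKO mice, tamoxifen to 5 wild-type and 4 *Esr1* cKO mice.

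The libraries held 2634253 to 8038158 UMIs, and 1746 to 5568 cells per library were kept, 55675 in all, with median depths of 563 to 819 UMIs per cell. At this depth a single cell rarely showed more than 1 UMI of a receptor, so levels are given in CPM, the usual scaling of a gene's UMIs to a common total, from UMIs summed over the cells of 1 type in 1 library. Counts per gene symbol do not tell which part of a transcript was read, so the *Esr1* level is no check of the deletion. Over all kept cells *Esr1* was 90.8, 41.7 and 16.4 CPM in the wild-type oil libraries. In the wild-type tamoxifen libraries it was 69.2, 54.8, 54.6, 40.5 and 46.1 CPM. It was 33.2, 38.2, 36.3 and 34.8 CPM in *Esr1* cKO oil and 44.1, 60.3, 10.1 and 54.3 CPM in *Esr1* cKO tamoxifen libraries, so the genotypes overlapped. The lowest values, 16.4 and 10.1 CPM, came from the 2 libraries described below as standing apart. Between the genotypes the other libraries, from 33.2 to 90.8 CPM, overlapped too. In neurons *Esr1* averaged 60.1 ± 23.1 CPM in wild-type oil, 66.1 ± 7.85 in wild-type tamoxifen, 48.7 ± 7.65 in *Esr1* cKO oil and 52.9 ± 26.3 in *Esr1* cKO tamoxifen libraries (SD, n = 3, 5, 4 and 4). There the genotypes differed by -0.32 on the log2 scale (SE 0.23, edgeR quasi-likelihood test, adjusted p = 1), which did not pass. Neurons outside the *Nkx2-1* lineage keep the gene. The study also saw no significant fall of *Esr1* transcripts in single cells of *Esr1* cKO mice. By antibody staining it reported clear loss of the receptor protein in the medial preoptic area, the ventrolateral ventromedial nucleus and the arcuate nucleus.

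Replicate 3 of the oil-treated wild-type mice and replicate 3 of the *Esr1* cKO mice on tamoxifen stood apart. Their first principal component scores were 129 and 124, where the others ran from -44.4 to -5.65, and they held 3 and 4 UMIs of *Glp1r* in all kept cells, where the others held 52 to 122. The fewest genes in a deposited barcode were 100 in both, against 20 in each of the others. They listed 21188 and 21783 genes, where the others listed 22700 to 24332. The part of these differences in their standing apart was not tested. In addition, the libraries of wild-type tamoxifen replicates 4 and 5, *Esr1* cKO oil replicate 4 and *Esr1* cKO tamoxifen replicate 4 shared 303 to 359 cell barcodes in each pair, where other pairs shared 0 to 42. Of their 16407 cells, 1418 carried a barcode found in more than 1 of these 4 libraries, and 99.4% to 100% of the cells with a shared barcode were of the same type in both libraries of a pair, with a median correlation of their profiles of 0.59 to 0.64 against 0.16 to 0.17 for other cells. These 1418 cells held 16 of the 934 UMIs of *Npy2r*, 165 of the 3735 of *Insr* and 76 of the 2553 of *Irs2*. The *Npy2r* difference between genotypes and several levels are given with and without the 2 libraries or the shared cells. The other fold changes are given only with them.

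Clustering gave 9 cell types, named from marker lists, each with at least 6 of its listed markers: 9143 neurons, 13569 astrocytes, 3182 ependymal cells, 9225 oligodendrocytes and their 4450 precursors (polydendrocytes), 5394 microglia, and, of the vessels and meninges, 7185 endothelial cells, 969 fibroblasts and 2360 mural cells. A further 198 cells stayed unnamed. Because the types were found from the same cells, the level of a gene in 1 type against another is a description. Summed UMIs cannot tell apart fewer cells with a transcript and less of it per cell. Levels in barcodes with 200 genes or fewer are given as the background. The share of these barcodes that hold RNA without a whole cell was not tested. The background is no lower limit, since some types lay under it.

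**Figure D1:**
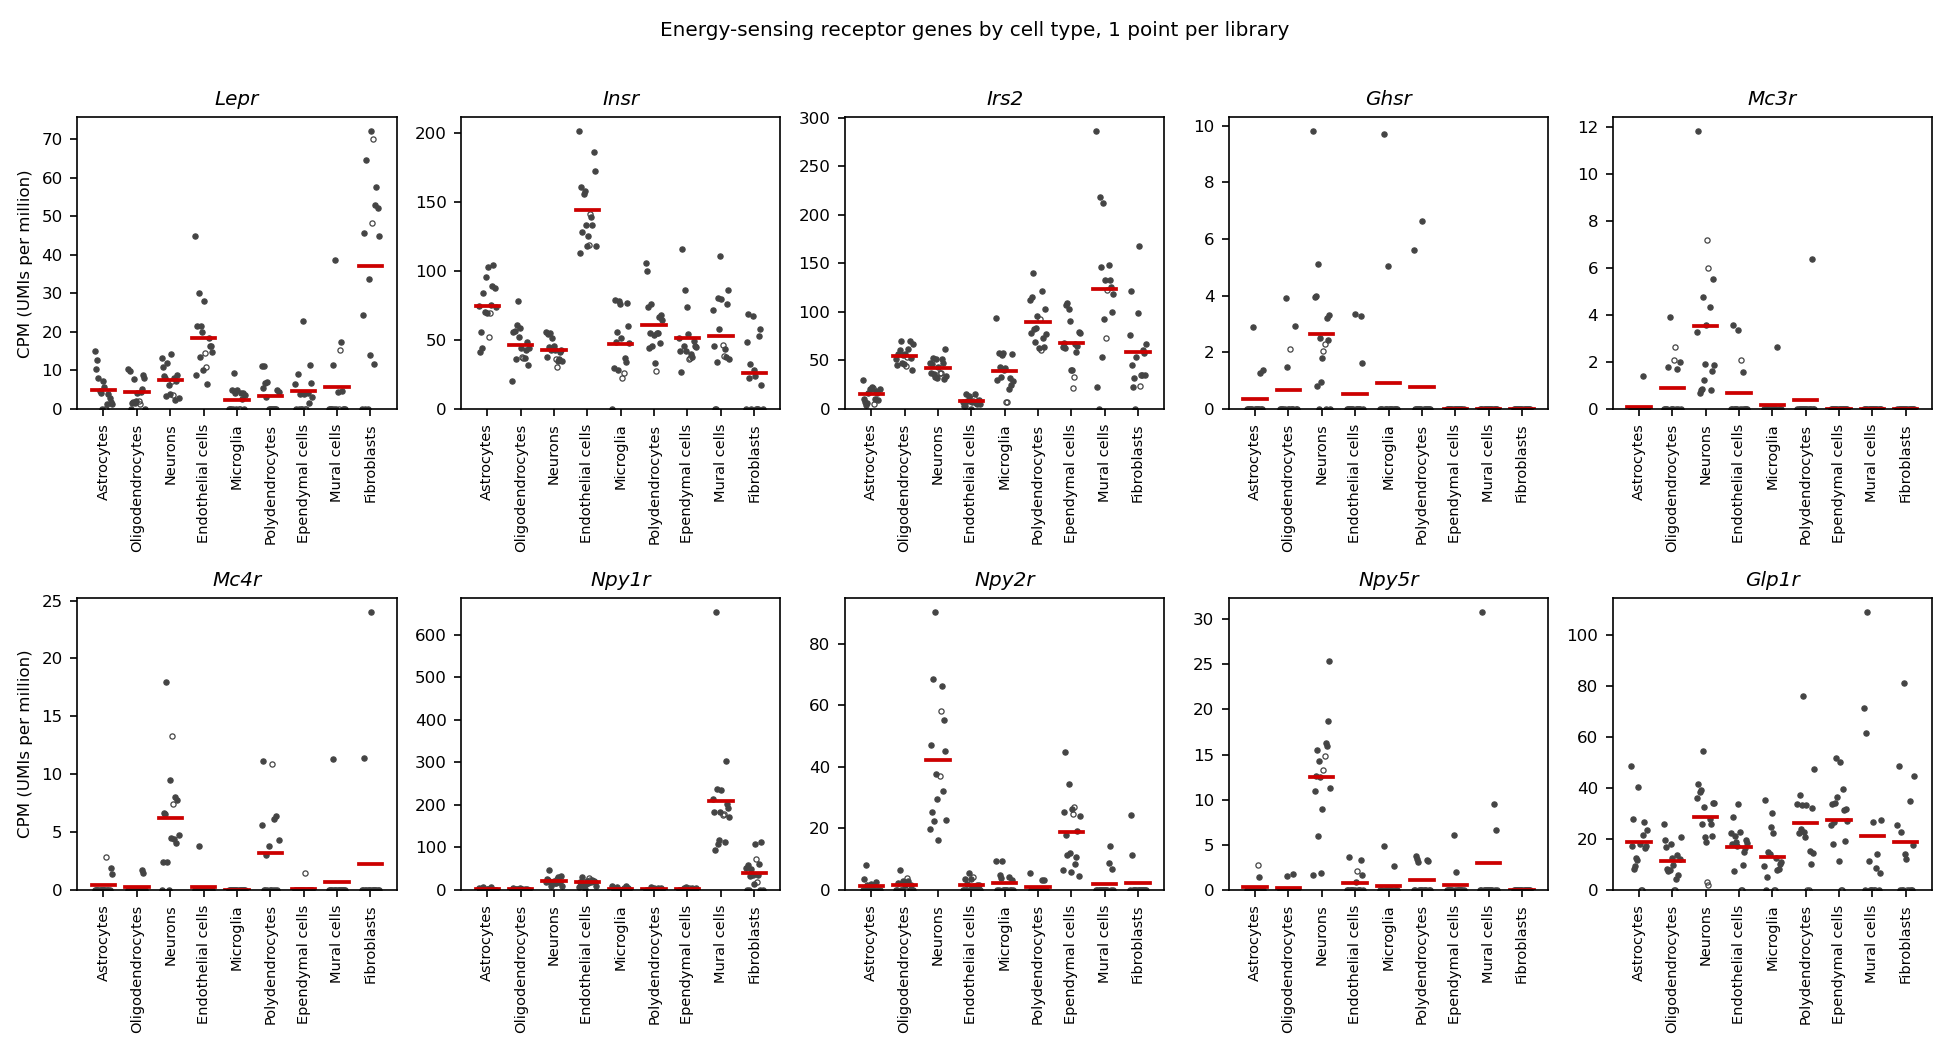
CPM of each of the 10 genes (y axis, each panel with its own scale) in the 9 cell types (x axis). Each point is 1 of 16 libraries, open points are the 2 libraries that stood apart, and red bars are means over libraries. *Insr* was highest in endothelial cells, *Npy1r* and *Irs2* in mural cells, *Lepr* in fibroblasts, and *Npy2r*, *Npy5r*, *Mc3r*, *Mc4r* and *Ghsr* in neurons, while *Glp1r* was spread over all types.

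*Lepr*, the leptin receptor (GRCm38.p6 chr4:101717137-101815352), had its highest mean outside neurons. Fibroblasts held 37 ± 25.4 CPM (SD, n = 16 libraries), from 0 in 3 libraries to 72 with a median of 45.3. Endothelial cells held 18.5 ± 9.53 CPM, from 6.38 to 44.8 with a median of 16.3, and neurons 7.56 ± 3.71 CPM, from 2.41 to 14.3. Fibroblasts were above endothelial cells in 13 of 16 libraries, but their difference of 18.5 CPM was below the larger SD, whereas the step from endothelial cells to neurons, 10.9 CPM, was beyond it. The other 6 types had means of 2.36 to 5.74 CPM, near the 4.02 CPM of barcodes with 200 genes or fewer.

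Within fibroblasts, *Lepr* lay almost wholly in 1 of a pair of finer clusters found at a resolution of 0.5. The *Dcn*-led cluster held 45 of the 46 UMIs of the fibroblasts, and in the 10 libraries that could be compared it was above the *Prg4*-led cluster in 9, with both at 0 in the remaining library. Means were 57 ± 40.4 CPM (n = 16) and 1.61 ± 5.09 CPM (n = 10). The *Dcn*-led cells also carried *Igf2*, *Slc6a13* and *Ptgds*, genes of the meninges, while the *Prg4*-led cells carried *Slc47a1* and *Mgp*.

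*Insr*, the insulin receptor (chr8:3150922-3279649), was found in every type, with its highest level in the vessel wall. Endothelial cells held 144 ± 26.3 CPM, from 113 to 201 with a median of 136, and lay above astrocytes in 16 of 16 libraries. Astrocytes followed with 74.4 ± 19.2 CPM, and the remaining types ran from 26.2 CPM in fibroblasts to 60.8 CPM in polydendrocytes, each within 1 SD of its neighbour in the order. At nearly equal depth, 13.3% of endothelial cells had an *Insr* UMI (95% exact interval 12.5% to 14.1%, median 731 UMIs per cell) against 3.87% of oligodendrocytes (3.49% to 4.28%, median 753). The background was 43 CPM, as high as the 42.9 ± 7.86 CPM of neurons.

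*Irs2*, which couples the receptors for insulin and IGF-1 to PI3-kinase, was lowest in the types where *Insr* was highest. Endothelial cells held 7.94 ± 4.35 CPM, from 0 to 15.9, and astrocytes 15 ± 7.53 CPM, against a background of 14.4 CPM. Mural cells held 124 ± 72.5 CPM, from 0 in 1 library to 286, polydendrocytes 89.3 ± 23.4, ependymal cells 67.9 ± 26.3, fibroblasts 58.3 ± 41.9, oligodendrocytes 54.9 ± 9.06, neurons 42.4 ± 9.09 and microglia 39.5 ± 21.8. The first 4 steps of this order were within the SD, while oligodendrocytes were above neurons in 15 of 16 libraries by 12.5 CPM, beyond the SD. Mural cells lost the first place to fibroblasts when cells were limited to a mitochondrial share under 5%.

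The high mural level of *Irs2* was that of smooth muscle-like cells. The *Acta2*-led cluster, with 6 of 6 smooth muscle markers, held 164 ± 113 CPM against 17.9 ± 47.8 CPM in the *Vtn*-led cluster, with 6 of 6 pericyte markers, and was above it in 13 of 15 libraries, with 1 equal. Among ependymal cells, the *Scn7a*-led cluster, with 8 of 8 tanycyte markers, held 108 ± 58.8 CPM against 32.3 ± 21.1 CPM in the *Ttr*-led cluster, which had the cilia genes *Ccdc153* and *Tmem212* among its leading genes and 4 of 6 choroid plexus markers, and was above it in 13 of 16 libraries. Tanycytes line the floor of the ventricle beside the arcuate nucleus and touch both its fluid and the blood side. In microglia, summed over libraries, the *Ccl4*-led cluster held 46.3 CPM of *Irs2* and the *P2ry12*-led cluster 12.7 CPM.

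*Ghsr*, the ghrelin receptor, was rare. Its 64 UMIs came from 15 libraries, and 46 of them lay in neurons, with a mean of 2.64 ± 2.45 CPM that ran from 0 in 3 libraries to 9.8. Ependymal cells, mural cells and fibroblasts had no UMI, which allows levels of up to 0.593, 2.05 and 2.67 CPM for a count of 3 UMIs. The background was 1.01 CPM, and neurons were not above microglia beyond the SD.

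*Glp1r*, the GLP-1 receptor (chr17:30901867-30936510), had no type that stood out. Neurons held 28.5 ± 13.6 CPM, ependymal cells 27.3 ± 15, polydendrocytes 26.4 ± 18.6 and the other types 11.4 to 21 CPM, against a background of 13.9 CPM. No neighbours in this order differed beyond the SD. Without the 2 libraries that stood apart, in which neurons held 3.08 and 1.85 CPM, the neuronal mean was 32.2 ± 9.76 CPM and the ependymal mean 31.2 ± 11.4 CPM.

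The melanocortin receptors *Mc3r* and *Mc4r* were both mostly neuronal. Of the 82 UMIs of *Mc3r*, 67 lay in neurons at 3.52 ± 3.04 CPM, from 0.664 to 11.8, and every library had at least 1. The background of *Mc3r* was 1.81 CPM. Of the 145 UMIs of *Mc4r*, 122 lay in neurons at 6.21 ± 4.67 CPM, from 0 in 2 libraries to 18. Polydendrocytes, the precursors of oligodendrocytes, held 12 further *Mc4r* UMIs in 8 of 16 libraries at 3.2 ± 3.91 CPM, above a background of 1.21 CPM. Neurons were above the next type in 14 of 16 libraries for *Mc3r* and in 11 of 16 for *Mc4r*, though for neither beyond the SD.

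*Npy1r*, which encodes Y1 (chr8:66697149-66706800), was at its highest in vessels and not in neurons. Mural cells held 210 ± 130 CPM, from 92.5 to 653 with a median of 183, and were above fibroblasts, the next type at 40.2 ± 36.2 CPM, in 16 of 16 libraries. Neurons held 21 ± 9.24 CPM and endothelial cells 17.2 ± 7.21 CPM, while the other 5 types held 1.08 to 1.99 CPM, below the background of 9.15 CPM. At similar depth, 10.8% of mural cells had an *Npy1r* UMI (9.54% to 12.1%, median 527 UMIs) against 0.0811% of astrocytes (0.0405% to 0.145%, median 482).

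The same smooth muscle-like cells that carried *Irs2* carried *Npy1r*. The *Acta2*-led cluster was above the pericyte-like *Vtn*-led cluster in 15 of 15 libraries, with means of 272 and 42.5 CPM. NPY is known as a transmitter of sympathetic nerves that constricts arteries through Y1. Within the endothelial type, *Npy1r* lay in the *Gkn3*-led cluster at 39.7 CPM and hardly in the *Itm2a*-led cluster at 1.42 CPM. The *Gkn3*-led cells also carried all 9 listed mural markers, and the part of mural RNA in their *Npy1r* level was not tested. In fibroblasts the order of the finer clusters was the reverse of that of *Lepr*, with 67.8 CPM of *Npy1r* in *Prg4*-led and 22.1 CPM in *Dcn*-led cells, though *Prg4*-led cells were above in 6 of 10 libraries, with 2 equal.

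*Npy2r*, which encodes Y2 (chr3:82538383-82548989), had 2 sites. Neurons held 42 ± 21 CPM, from 16.1 to 90.3 with a median of 37.3, and ependymal cells 18.9 ± 11.4 CPM, from 4.54 to 44.9 with a median of 18.4. No other type had a mean above 2.24 CPM, and the background was 13.6 CPM. The share with an *Npy2r* UMI was 5.22% in neurons (4.77% to 5.69%, median 1490 UMIs), 2.58% in ependymal cells (2.05% to 3.19%, median 1117.5 UMIs) and 0.059% in astrocytes (0.0255% to 0.116%). Of the 89 ependymal UMIs, 87 lay in the *Ttr*-led cluster at 30.7 CPM, while the tanycyte-like *Scn7a*-led cluster held 0.781 CPM and was below it in 15 of 16 libraries. The ependymal *Npy2r* was thus in the *Ttr*-led cells, whereas the higher ependymal *Irs2* was in the tanycyte-like cells.

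*Npy5r*, which encodes Y5 and lies beside *Npy1r* on chromosome 8 (chr8:66679965-66688094), was neuronal. Neurons held 241 of its 264 UMIs at 12.5 ± 5.99 CPM, from 1.63 to 25.4. No other type had a mean above 2.93 CPM, and the background was 3.02 CPM. *Npy1r* and *Npy5r* lie on opposite strands. The vessel level of *Npy1r* was not shared by *Npy5r*, of which mural cells held 4 UMIs in 3 libraries and endothelial cells 6.

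**Figure D2:**
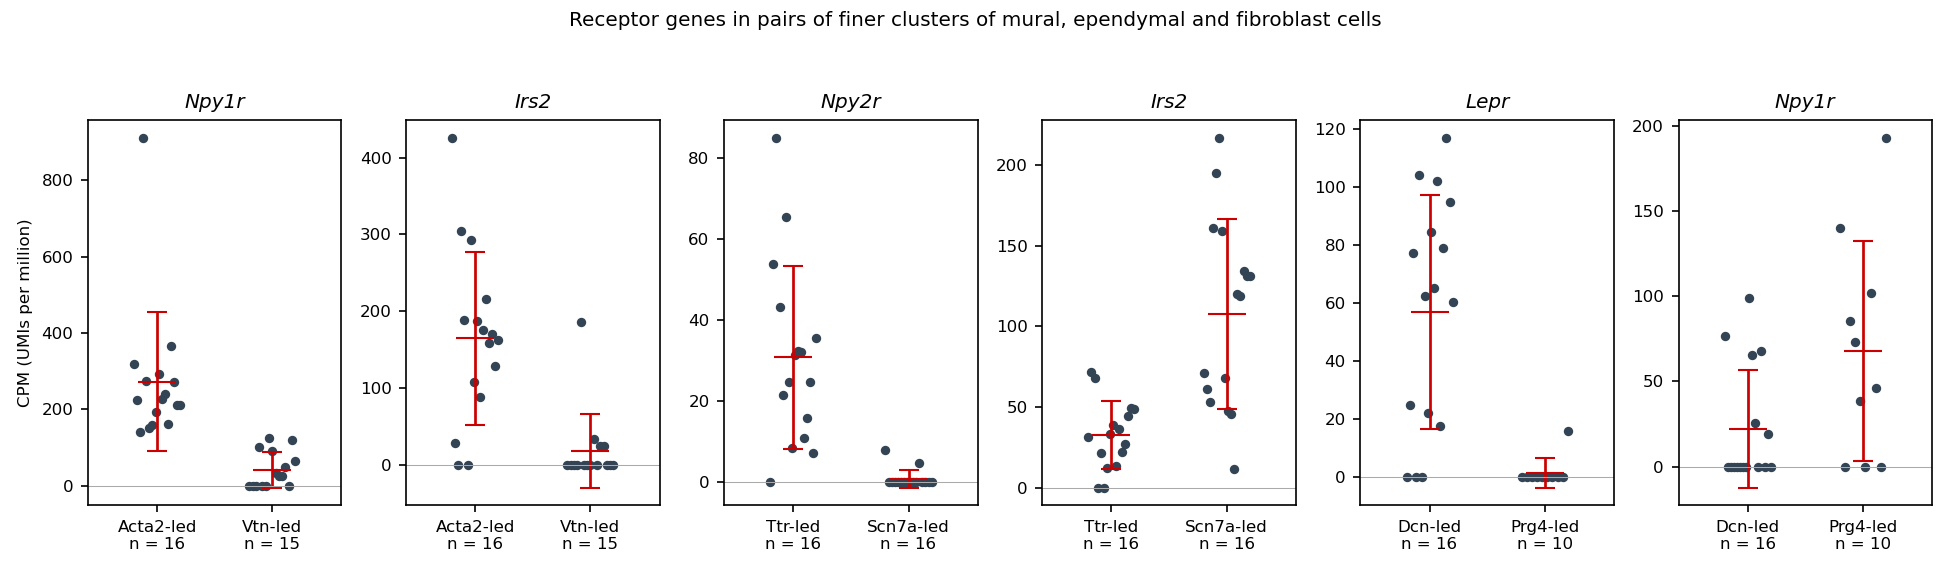
CPM (y axis) of *Npy1r*, *Irs2*, *Npy2r* and *Lepr* in pairs of finer clusters, named by their leading gene (x axis), of mural cells (*Acta2*, *Vtn*), ependymal cells (*Ttr*, *Scn7a*) and fibroblasts (*Dcn*, *Prg4*). Points are libraries with at least 10 cells of the cluster, and bars are the mean and SD. *Npy1r* and *Irs2* were high in *Acta2*-led cells, *Npy2r* in *Ttr*-led and *Irs2* in *Scn7a*-led cells, and *Lepr* in *Dcn*-led cells.

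Neurons were clustered again to ask which of them carried each gene. This gave 24 clusters, of which 22 with at least 50 neurons and 8 libraries are described, 8983 of the 9143 neurons, each called by its leading gene. Means and ranks are over the libraries of both genotypes, and where a genotype taken alone gave another order this is stated for the clusters ranked first. The *Itih3*-led cluster showed 7 of 8 astrocyte markers. The *Vgf*-led, *Slc6a3*-led and *Hba-a2*-led clusters had median depths of 367 to 437 UMIs, so that a single UMI there moves the mean of a library far.

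*Agrp*-led neurons, 66 cells in 9 libraries with *Npy* and *Otp* among their leading genes, were the highest cluster for 4 of the 10 genes. This order held in each genotype taken alone for *Irs2* and *Ghsr*. For *Npy2r* it held in *Esr1* cKO libraries, whereas in wild-type libraries *Crym*-led neurons were first, at 204 ± 142 CPM against 146 ± 70.3 CPM in *Agrp*-led neurons. For *Lepr* it held in neither, with *Pomc*-led neurons first in wild-type and *B230323A14Rik*-led neurons in *Esr1* cKO libraries. Over both genotypes, *Npy2r* averaged 232 ± 104 CPM there, from 57.9 to 367, above the other neurons of the same library in 9 of 9 libraries, and 42.4% of these cells had an *Npy2r* UMI (30.3% to 55.2%). *Irs2* averaged 103 ± 50.1 CPM, above the other neurons in 8 of 9. *Lepr* averaged 27.8 ± 42.5 CPM from 8 UMIs and *Ghsr* 12.3 ± 25.5 CPM from 4 UMIs, with 5 and 7 of the 9 libraries at 0, so that each was within its SD of the next cluster. The *Agrp*-led cluster made up 0.722% of neurons and held 6.8% of their 794 *Npy2r* UMIs. The larger *Gal*-led cluster held 92 of these UMIs in wild-type and 291 in *Esr1* cKO cells. *Agrp* neurons are the known site of ghrelin action on feeding, and Y2 is known on them as an autoreceptor for NPY.

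*Tac2*-led neurons, 105 cells in 13 libraries with *Pdyn* and *Tbx3* and with all 5 listed markers of the *Tac2* type, *Kiss1* and *Esr1* among them, were the highest cluster for *Npy1r*, *Npy5r* and *Mc3r*. *Npy1r* averaged 148 ± 155 CPM and *Npy5r* 100 ± 76.8 CPM, each from 0 in 3 libraries and each above the other neurons in 10 of 13. *Mc3r* averaged 25 ± 37.1 CPM from 15 UMIs, with 8 of the 13 libraries at 0. It was above the other neurons in 5 of 13 libraries and above *Agrp*-led neurons, the second cluster, in 2 of 9. Without the 2 libraries that stood apart its mean was 16.9 CPM. Summed over libraries, the 272 neurons with at least 3 UMIs of *Tac2* held 87.2 CPM of *Npy1r*, against 180 CPM in the cluster. For *Npy5r* these values were 63.1 and 131 CPM, and for *Mc3r* 17 and 33.4 CPM, so the levels depended in part on the clustering. The cluster made up 1.15% of neurons and held 19.6% of their *Npy1r* UMIs, 24.5% of their *Npy5r* UMIs and 22.4% of their *Mc3r* UMIs. Most of these UMIs came from *Esr1* cKO mice, which gave 71 of the 105 cells. The wild-type and *Esr1* cKO cells held 5 and 76 UMIs of *Npy1r*, 6 and 53 of *Npy5r* and 1 and 14 of *Mc3r*, whose means were 17.7 ± 43.3 and 31.3 ± 33 CPM. In wild-type libraries alone, *Npy1r* was at 38.9 ± 48.4 CPM in *Tac2*-led neurons, below *Pomc*-led neurons at 106 ± 197, *Shox2*-led neurons at 53.3 ± 65.1 and *Slc6a3*-led neurons at 41.7 CPM from 1 UMI, and *Npy5r* was nearly equal in *Tac2*-led and *Pomc*-led neurons, at 46.3 and 45.5 CPM. A UMI of *Npy1r* was found in 37.1% (27.9% to 47.1%) and of *Npy5r* in 36.2% (27% to 46.1%) of these cells, whose median depth of 4282 UMIs was the greatest of the described clusters. *Npy2r*, by contrast, was nearly missing, at 1 UMI in the 105 cells. These neurons regulate gonadotropin-releasing hormone and heat loss and are a known site of estrogen action.

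*Pomc*-led neurons, 135 cells, held each NPY receptor gene among the 10 genes. *Npy2r* averaged 99.7 ± 82.8 CPM, *Npy1r* 95.4 ± 139 CPM and *Npy5r* 48.9 ± 42.6 CPM, placed after 2 clusters for *Npy2r* and *Npy1r* and after 1 for *Npy5r*. By the mean over libraries the same cells were the lowest cluster for *Insr* at 26.3 ± 45.1 CPM, with 9 of 14 libraries at 0. With UMIs summed over libraries they were not the lowest, at 30.8 CPM against 27.2 CPM in *Trh*-led and 28.7 CPM in *Tac1*-led neurons. *Crym*-led neurons, 315 cells with the cortical genes *Neurod2* and *Nrgn*, were second for *Npy2r* at 165 ± 106 CPM, from 71.9 to 411 in 10 libraries. *Agrp*-led were above *Crym*-led neurons in 5 of the 6 libraries that held both.

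*Mc4r* was highest in *Trh*-led neurons, 190 cells with *Sst*, *Otp* and *Sim1* among their leading genes. *Sim1* and *Otp* are genes of the paraventricular nucleus, where MC4R is known to restrain feeding. In these neurons *Mc4r* averaged 29 ± 26.6 CPM, from 0 in 3 libraries to 87.5, and lay above the other neurons in 11 of 14 libraries. The *Vgf*-led cluster followed at 18.6 CPM, which came from 2 UMIs in 2 libraries and fell to 1.72 CPM without the cells shared between libraries. *Tac1*-led neurons held 14.7 ± 23.1 CPM from 30 UMIs, of which 26 were wild-type and 4 *Esr1* cKO, at 26.2 ± 28.4 and 3.24 ± 6.03 CPM (n = 8 each). With each genotype taken alone, *Tac1*-led neurons were first in wild-type libraries, beside *Trh*-led neurons at 25.8 CPM, and the *Vgf*-led cluster was first in *Esr1* cKO libraries, at 37.3 CPM from 2 UMIs, before *Trh*-led neurons at 32.2 CPM. Without the shared cells, the *Trh*-led mean was 17.8 CPM. *Mc3r* followed in *Agrp*-led neurons with 14.5 ± 29.7 CPM and in *Vgf*-led neurons with 13.1 CPM from 2 UMIs.

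*Insr* was highest in the *B230323A14Rik*-led cluster at 180 ± 157 CPM from 20 UMIs, in the *Slc6a3*-led cluster at 136 ± 190 CPM from 5 UMIs and in the *Lrrtm4*-led cluster at 103 ± 39.3 CPM from 107 UMIs. Only the last was above 0 in all of its 14 libraries. The *B230323A14Rik* level rested on the clustering, since the 49 neurons with at least 3 UMIs of that gene held 16 CPM of *Insr*. *Irs2* was second in *Vipr2*-led neurons, 894 cells with 5 of 5 markers of the suprachiasmatic nucleus, at 79.9 ± 40.8 CPM, from 41.4 to 196 in 16 libraries, followed by *Gal*-led neurons at 52.2 ± 24.4 CPM.

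No neuronal cluster stood out for *Glp1r*. The *Oxt*-led cluster, magnocellular-type neurons with *Avp*, held 44.9 ± 64 CPM and was above the other neurons in 5 of 13 libraries. It was first in wild-type libraries alone, at 65.2 ± 86.6 CPM, but not in *Esr1* cKO libraries, where *Slc6a3*-led neurons were first from 1 UMI. *Slc6a3*-led neurons followed at 42.2 CPM from 1 UMI and *Ppp1r17*-led neurons at 39.3 ± 70 CPM. For *Lepr*, *Crym*-led neurons held 22 ± 38 and *B230323A14Rik*-led neurons 21.4 ± 46.7 CPM from 7 and 2 UMIs, and for *Ghsr*, *Tac2*-led neurons held 6.2 and *Vipr2*-led neurons 5.88 CPM.

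Some clusters had no UMI of a gene. *Hdc*-led neurons, 50 histaminergic-type cells in 9 libraries, had no UMI of *Lepr*, *Ghsr*, *Mc3r*, *Mc4r*, *Npy1r* or *Npy5r*, a count that allows up to 16.3 CPM at 3 UMIs, and were the lowest cluster for *Glp1r* at 4.8 CPM from 1 UMI. *Slc6a3*-led neurons had no UMI of *Irs2* or *Npy2r* in 80 cells, but at their depth a count of 0 allows up to 73.2 CPM. *Npy2r* was also at 0 in the 894 *Vipr2*-led neurons, which allows up to 2.17 CPM, and in the 147 *Oxt*-led neurons, which allows up to 5 CPM.

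**Figure D3:**
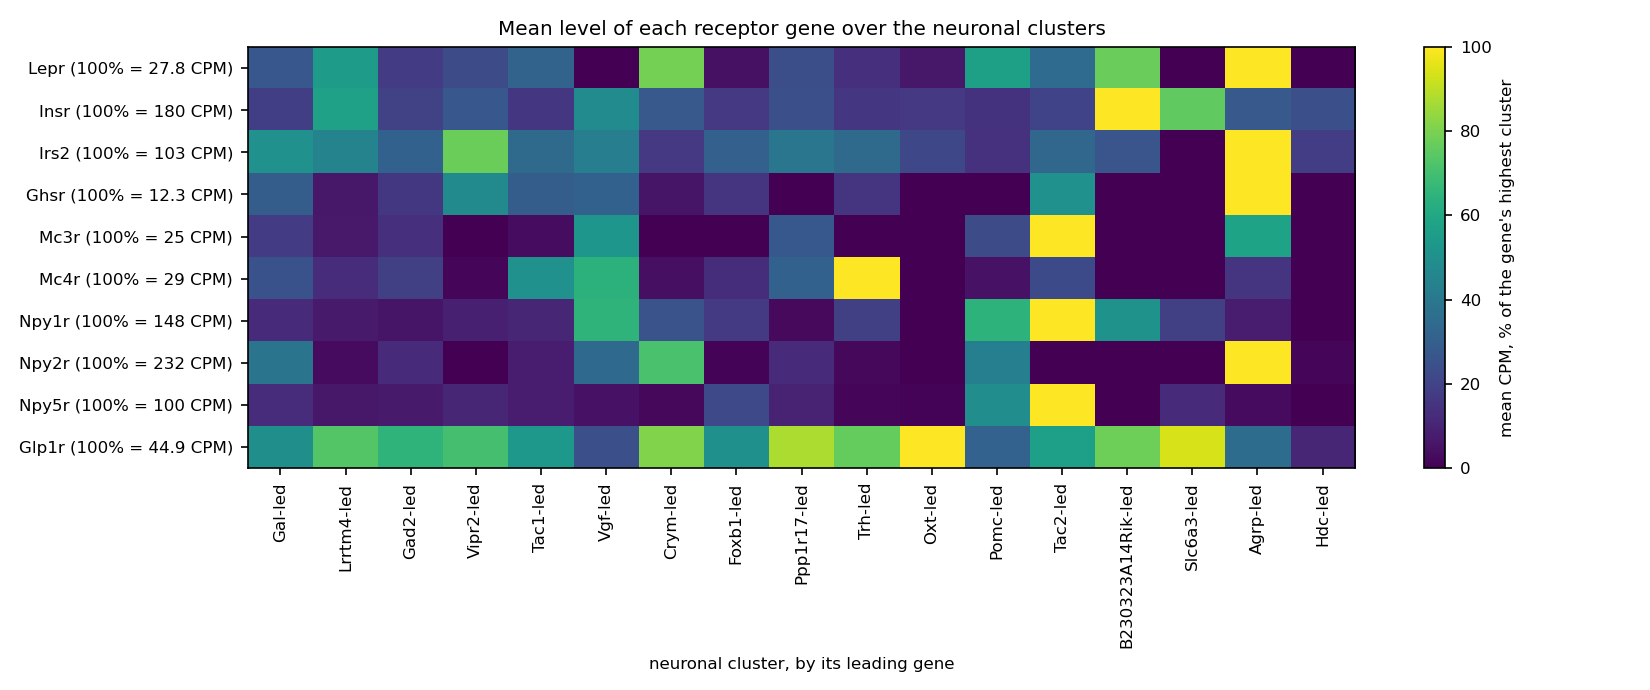
Mean CPM of each gene (rows) in 17 of the 22 neuronal clusters (columns, by leading gene), those among the 3 highest or the lowest for a gene or among the 6 plotted by genotype for *Npy2r*, as a percentage of the gene's highest cluster, whose CPM stands beside its name. *Npy1r* and *Npy5r* shared the *Tac2*-led and *Pomc*-led clusters, and *Glp1r* was spread over most clusters. *Npy2r* had its highest means in *Agrp*-led and *Crym*-led neurons, though more of its UMIs lay in the larger *Gal*-led cluster.

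In single neurons, receptor transcripts were seldom found together. No UMI of any of the 10 genes was found in 73.5% of neurons (median depth 1159 UMIs), 1 gene in 20.9% (2397.5 UMIs) and 2 in 4.52% (3832 UMIs), so the number found rose with depth. Among the 307 neurons with *Npy1r*, 16.6% also had *Npy5r*, against 1.61% of the others, whose median depth was 1438 and not 3406 UMIs. *Npy2r* was found in 11.7% of the neurons with *Npy1r* against 4.99% of the rest, and *Insr* in 7.63% of the 118 neurons with *Lepr* against 7.41% of the rest. The part of depth in these shares was not tested.

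The genes most like each receptor over the 22 clusters were found by Pearson's r of log2(CPM + 10) over 10552 genes, as a description in which the points share libraries. For *Npy2r* these were *Gm13889* (r = 0.8), *Adamts1* (0.79) and *Prox1* (0.74). For *Npy1r* they were *Kcnk12* (0.77), *Gla* (0.66) and *Npr3* (0.65), and for *Npy5r* *Cdk2ap2* (0.77), *Npr3* (0.69) and *Dgkk* (0.69), so that *Npr3*, a natriuretic peptide receptor, stood in both lists. For *Insr* they were *mt-Nd6* (0.91), *Myo3a* (0.9) and *Rhbdd1* (0.89), for *Irs2* *Phc1* (0.85) and *Gm14164* (0.84), and for *Glp1r* *Cbx7* (0.78), *Unc5c* (0.78) and *Cntn6* (0.77). The other 4 genes had fewer than 200 UMIs in neurons and were left out.

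Whether 28 days of tamoxifen changed these genes was asked in each cell type by edgeR, with UMIs summed per mouse and adjustment over all genes tested in the type. Of the 10 genes, 8 passed the filter on low counts in at least 1 type, which gave 26 tests. *Insr* was tested in 7 types, *Irs2* in 6, *Glp1r* in 5, *Npy1r* in 3, *Lepr* in 2 and *Mc4r*, *Npy2r* and *Npy5r* in neurons only. *Ghsr* and *Mc3r* passed in no type, and none of the 10 passed in fibroblasts, so the fibroblast level of *Lepr* could not be compared.

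Tamoxifen against oil passed in none of the 26 tests in wild-type mice (0% of all 64935 tests), nor in *Esr1* cKO mice (0%). At an unadjusted p under 0.05 there were also 0 of 26 in both, by edgeR, where 3.23% and 3.58% of all tests lay under it, and DESeq2 called 0. In neurons of wild-type mice, *Npy2r* stood at 26.2 ± 9.33 CPM under oil and 25.1 ± 6.23 under tamoxifen, a log2 fold change of -0.11 (SE 0.31), and in *Esr1* cKO mice at 56.9 ± 14.1 and 60.2 ± 20.8, a log2 fold change of 0.01 (SE 0.26). *Insr* was -0.19 in both genotypes (SE 0.19 each) and *Irs2* 0.02 (SE 0.23) and -0.14 (SE 0.22). Over all types the largest log2 fold changes were 0.98 in wild-type mice, for *Glp1r* in ependymal cells, and -0.85 in *Esr1* cKO mice, for *Irs2* in mural cells. *Glp1r* was nearly missing, at 3 and 4 UMIs, from the 2 libraries that stood apart, of the wild-type oil and *Esr1* cKO tamoxifen groups. Their part in the fold changes of *Glp1r* was not tested.

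The difference of the tamoxifen effect between genotypes passed for none of the 26 tests either (0% of all tests, DESeq2 0), with 1 at an unadjusted p under 0.05, where 4.88% of all tests lay under it. That share of the members is no larger than the share of all tests. The 1 test was *Insr* in microglia. Its level was 0, 22.5 and 55.7 CPM in wild-type oil libraries, 34.3 to 79 with a median of 51.7 in wild-type tamoxifen, 37.1 to 78.5 with a median of 62.6 in *Esr1* cKO oil and 26.2 to 59.8 with a median of 28.7 in *Esr1* cKO tamoxifen libraries. All 4 ranges overlapped. The log2 difference of both effects was -1.51 (SE 0.66, adjusted p = 0.799).

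*Esr1* cKO and wild-type mice were compared in the same fits. Leaving out *Npy2r* in neurons, on which the choice rested, 7 genes gave 25 tests. None passed under oil (0% of all tests), under tamoxifen (0.00154%, 1 gene) or in the mean of both treatments (0.00308%, 2 genes), and DESeq2 called none of the 25. The genes past the threshold were *Nov* and *Socs2*, both in neurons, and neither is one of the 10. *Nov*, with a log2 fold change of 3.09 in the mean of both treatments, is a leading gene of the *Tac2*-led cluster. An unadjusted p under 0.05 was found for 0 of 25 tests under oil, 0 under tamoxifen and 2 in the mean of both, which were *Npy1r* and *Npy5r* in neurons, where 4.87%, 3.16% and 3.47% of all tests lay under it. *Mc4r* in neurons ran the other way, at 8.08 ± 5.59 CPM in wild-type libraries and 4.35 ± 2.73 CPM in those of *Esr1* cKO mice (n = 8 each, ranges 0 to 18 and 0 to 7.72), with a fitted log2 change of -0.85 (SE 0.47, edgeR, adjusted p = 1).

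**Figure D4:**
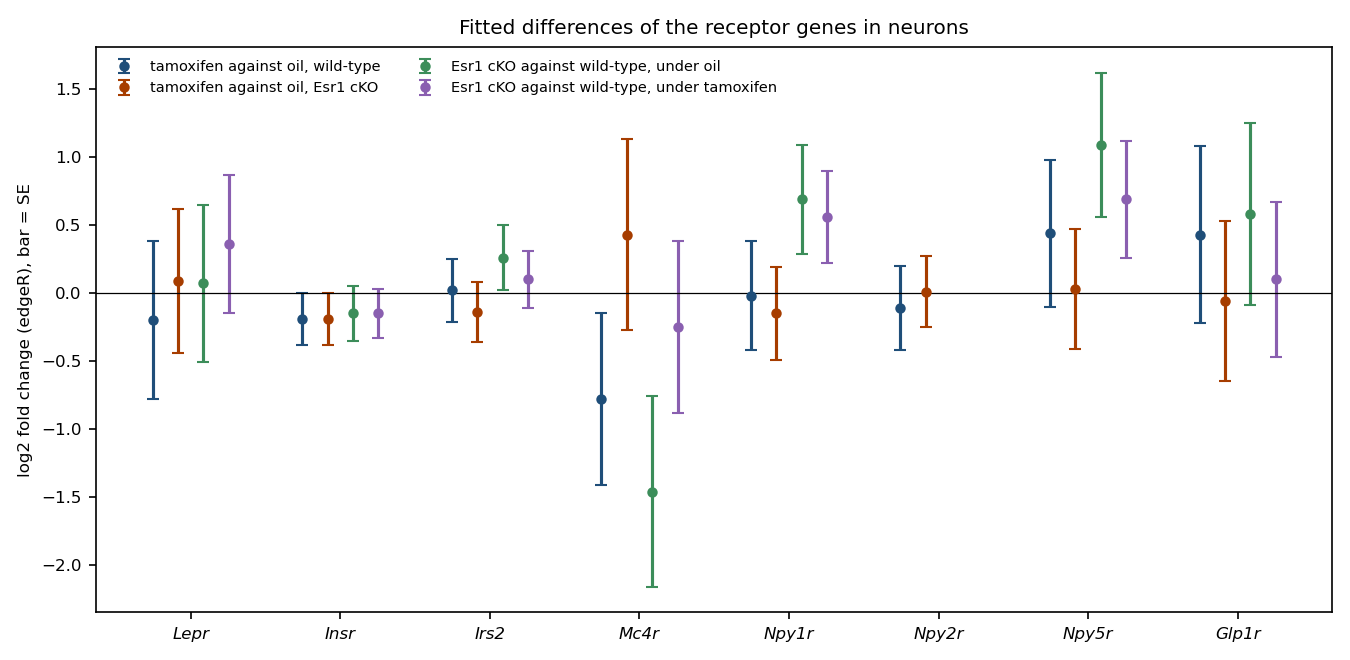
Fitted log2 fold changes (y axis, bars are SE) of the 8 tested genes in neurons (x axis) for tamoxifen against oil in each genotype and for *Esr1* cKO against wild-type under each treatment. *Npy2r* by genotype is not drawn here because the gene was chosen on it. No drawn difference passed the threshold, and the bars were short for *Insr* and *Irs2* and long for *Lepr*, *Mc4r* and *Glp1r*.

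*Npy2r* in neurons is the value on which the gene was chosen. It was 19.6, 22.2 and 36.9 CPM in the wild-type oil libraries and 25.2, 29.5, 16.1, 32.1 and 22.6 CPM in the wild-type tamoxifen libraries. It was 68.5, 37.6, 66.3 and 55.2 CPM in *Esr1* cKO oil and 47.2, 90.3, 58.2 and 45.2 CPM in *Esr1* cKO tamoxifen libraries. The genotypes did not overlap, with 36.9 CPM as the highest wild-type and 37.6 CPM as the lowest *Esr1* cKO library. How many of the 12443 genes tested in neurons separate the genotypes in this way was not counted. Means were 25.5 ± 6.89 and 58.6 ± 16.6 CPM (n = 8 each), and the fitted log2 fold change was 1.12 (SE 0.30) under oil, 1.24 (SE 0.26) under tamoxifen and 1.18 (SE 0.20) in the mean of both. In that mean, 14 of the genes tested in neurons had a larger log2 fold change.

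The size of this difference depended on the libraries as follows. Without the 2 libraries that stood apart it was 1.34, and the highest wild-type library was one of them. Without the shared cells it was 1.2, and with each library left out in turn 1.1 to 1.37. The study prepared 4 mice on each of 4 days, which the labels do not assign, and within each successive 4 library numbers, 2 libraries of each genotype, the ratio of *Esr1* cKO to wild-type means was 2.58, 2.47, 2.35 and 1.84.

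By mean, *Npy2r* was higher in *Esr1* cKO libraries in 15 of the 22 neuronal clusters and lower in 3, and 4 had no UMI in either genotype. In *Gal*-led neurons *Npy2r* was 50 ± 27.6 CPM in wild-type libraries and 129 ± 64 CPM in *Esr1* cKO libraries (n = 8 each, ranges 16 to 86.6 and 55.3 to 238). In *Pomc*-led neurons it was 33.1 ± 37.1 and 166 ± 56.1 CPM (n = 7 each, 0 to 86.2 and 81.2 to 238), and in *Agrp*-led neurons 146 ± 70.3 and 300 ± 67.7 CPM (n = 4 and 5, 57.9 to 211 and 210 to 367). *Gad2*-led neurons held 18.4 ± 12 and 36.2 ± 13.3 CPM. The ranges overlapped in each of these 4 clusters, in the *Pomc*-led and *Agrp*-led ones only at their ends.

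The 3 clusters with the other direction were *Crym*-led neurons, with cortical genes, at 204 ± 142 CPM in wild-type and 126 ± 39.2 CPM in *Esr1* cKO libraries (n = 5 each), *Shox2*-led neurons at 23.9 and 3.44 CPM from 5 and 2 UMIs, and *Hba-a2*-led neurons at 25.5 and 10.3 CPM from 1 UMI each. *Tac1*-led neurons held 15.2 ± 13.5 and 20.9 ± 23.3 CPM. *Gal*-led neurons made up 13.7% of the wild-type and 17.5% of the *Esr1* cKO neurons, and *Agrp*-led neurons 0.515% and 0.937%. With the *Gal*-led cluster left out, the ratio of the genotype means fell from 2.29 to 1.91, at 18.7 and 35.6 CPM, and with any other single cluster left out it ran from 2.21 to 2.61. The genotypes then overlapped with the *Gal*-led, *Gm26924*-led, *Tac1*-led, *Crym*-led, *Ppp1r17*-led, *Trh*-led, *Pomc*-led or *Agrp*-led cluster left out, so that the lack of overlap was a narrow one.

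The promoter-side sequences of *Npy2r* and *Npy5r* are shown as a description, and control of these genes by estrogen receptor alpha was not tested. Both genes, like *Npy1r*, had higher means in *Esr1* cKO neurons. Both are on the minus strand of GRCm38.p6, from RefSeq, read 5′ to 3′ toward the start site, at chr3:82548086-82548335 and chr8:66688129-66688344, with GC boxes in capitals.
Npy2r: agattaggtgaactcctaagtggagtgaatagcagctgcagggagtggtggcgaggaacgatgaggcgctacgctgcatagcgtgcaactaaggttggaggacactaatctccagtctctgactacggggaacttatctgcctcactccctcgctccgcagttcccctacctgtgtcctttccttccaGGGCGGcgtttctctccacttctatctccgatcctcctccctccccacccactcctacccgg
Npy5r: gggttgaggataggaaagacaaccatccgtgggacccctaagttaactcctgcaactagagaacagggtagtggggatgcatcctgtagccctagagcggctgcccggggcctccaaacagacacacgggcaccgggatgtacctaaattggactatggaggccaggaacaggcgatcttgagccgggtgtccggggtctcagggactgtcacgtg
The 250 bases of *Npy2r*, which lie inside the RefSeq gene span and before each GENCODE start, hold 56.8% G and C, and the 216 bases of *Npy5r* 58.3%. Both strands were searched for the palindromic estrogen response element GGTCANNNTGACC, for its single arm GGTCA, which the full element contains, and for the GC box GGGCGG. *Npy2r* had 1 GC box and neither form of the estrogen element, and *Npy5r* had none of the 3. The window of *Npy1r*, whose sequence is not shown, also held neither form of the estrogen element. Among 32851 promoter windows of 250 bases, 0.0639% held the full element, 35.2% a single arm and 32.7% a GC box. Matches are a description of the letters in these windows only.

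**Figure D5:**
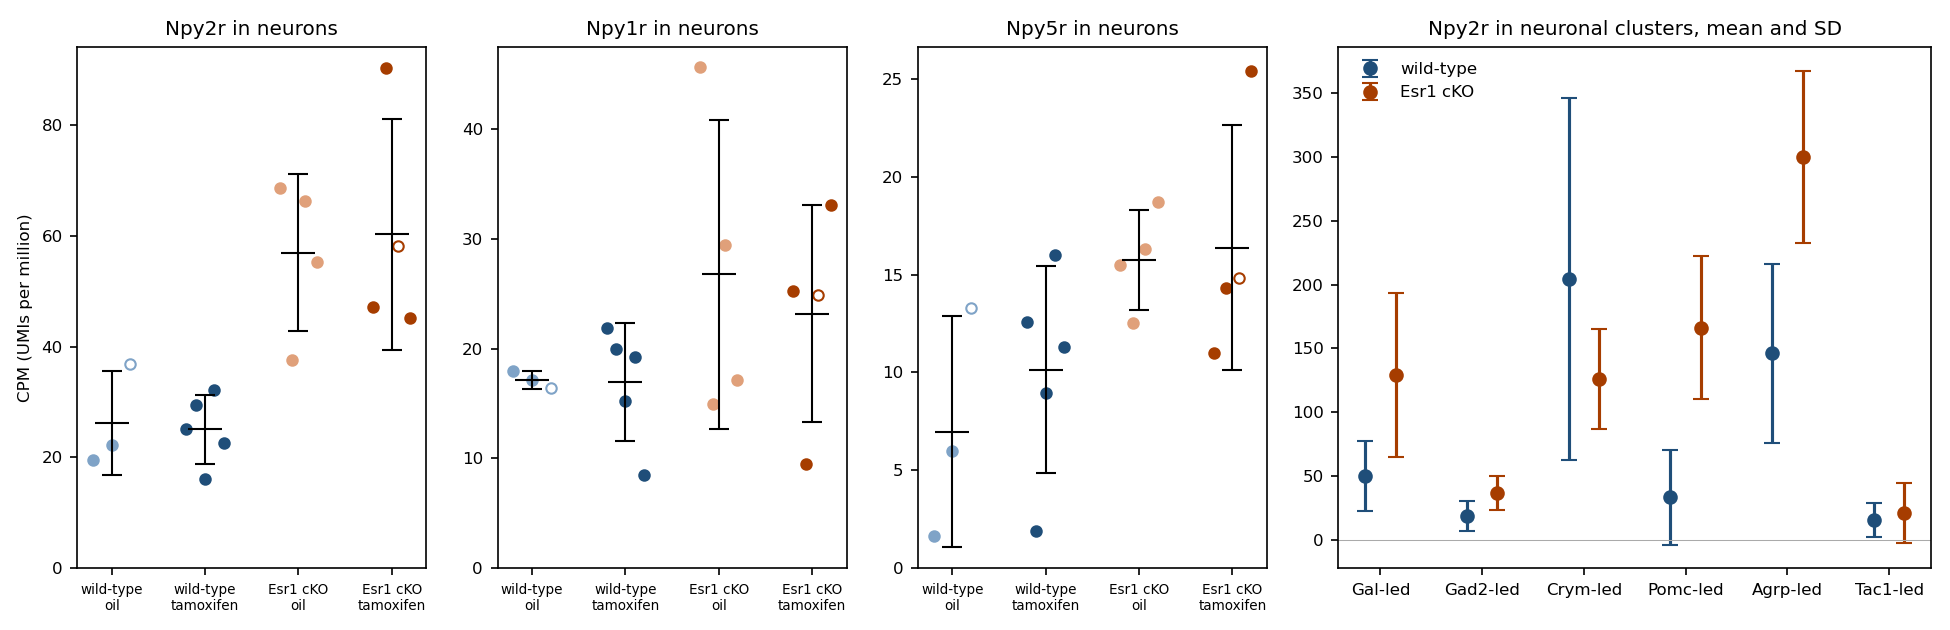
CPM (y axis) of *Npy2r*, *Npy1r* and *Npy5r* in neurons of the 4 groups (x axis), 1 point per library with the mean and SD, open points being the libraries that stood apart, and *Npy2r* in 6 neuronal clusters by genotype as mean and SD over libraries. All 8 *Esr1* cKO libraries lay above all 8 wild-type libraries for *Npy2r*, which was chosen on this value, while *Npy1r* and *Npy5r* overlapped.

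*Npy1r* and *Npy5r* in neurons also had higher means in *Esr1* cKO mice. *Npy1r* ranged from 8.47 to 21.9 CPM with a median of 17.5 in wild-type and from 9.5 to 45.6 with a median of 25.1 in *Esr1* cKO libraries. Its means were 17 ± 4.06 and 25 ± 11.4 CPM, 0.63 apart on the log2 scale (SE 0.26, edgeR, adjusted p = 1). *Npy5r* ranged from 1.63 to 16 CPM with a median of 10.1 and from 11 to 25.4 with a median of 15.1, with means of 8.97 ± 5.35 and 16.1 ± 4.41 CPM 0.89 apart on the log2 scale (SE 0.34, edgeR, adjusted p = 1). Both overlapped between genotypes, and neither passed the correction over all genes. Within the successive 4 library numbers, the ratio of means was 1.86, 3.39, 1.4 and 1.61 for *Npy5r* and 1.78, 0.662, 1.72 and 1.81 for *Npy1r*, so that 1 set ran against the others for *Npy1r*.

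For both genes the difference lay largely in the small *Tac2*-led cluster, where *Npy1r* was 38.9 ± 48.4 CPM in wild-type libraries and 241 ± 156 CPM in *Esr1* cKO libraries (n = 6 and 7, 0 to 106 and 87 to 566) and *Npy5r* 46.3 ± 53.7 and 147 ± 62.7 CPM (0 to 111 and 39.1 to 210). These means rest on 34 and 71 cells, and no test was made on the cluster. The *Tac2*-led cells made up 0.73% of the wild-type and 1.58% of the *Esr1* cKO neurons. Without this cluster the *Npy1r* means were 16.7 and 17.8 CPM, a ratio of 1.07 in place of 1.47, and the ratio of *Npy5r* was 1.29 in place of 1.79. *Npy2r*, hardly found in *Tac2*-led cells, kept a ratio of 2.34.

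The other genes of these pathways, from lists that leave out the 10 genes, were read in the same fits. In the mean of both treatments in neurons, 0 of 10 tested leptin pathway genes of 11 listed, 0 of 23 insulin, 0 of 14 melanocortin, 0 of 7 NPY, 0 of 5 ghrelin and incretin pathway genes and 0 of 19 other receptors for feeding signals passed the test in either direction, by edgeR. At an unadjusted p under 0.05 there were 0, 1, 2, 1, 0 and 1, where 3.14% of all genes in neurons lay under it, and the median log2 fold changes were 0.02, 0.06, 0.12, 0.03, 0.13 and -0.01, where the median over all genes in neurons was -0.01. Nor did any listed gene pass for tamoxifen against oil in either genotype, in neurons or in any other type. In the difference of the tamoxifen effect between genotypes, the 6 lists in the same order had medians of 0.05, -0.08, -0.25, 0.17, 0.02 and -0.1 in neurons, beside -0.02 over all genes, and 0, 3, 2, 0, 0 and 1 genes at an unadjusted p under 0.05, where 5.2% of all genes in neurons lay under it.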

How the data were processed

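Cells of the hypothalamus and preoptic area of 16 mice were measured by Drop-seq, 1 library per mouse. The authors deposited whole-number UMI counts per gene symbol and cell barcode, without normalization or pooling. The fewest genes in a deposited barcode were 100 in the 2 libraries that stood apart and 20 in each of the others. The submitters' processing notes name STAR 2.6, Seurat 3.6.1 and mm10. The annotation that was counted is not given in the sources used here, and gene coordinates come from RefSeq (GRCm38.p6).

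As in the study, a cell was kept if it had over 200 but under 4000 genes and a mitochondrial share under 15%. The 4 groups were joined by CCA anchors (2000 variable genes, 30 dimensions) in Seurat 5.3.0 under R 4.3.3. Libraries within a group were not aligned to each other. Clusters were drawn on 20 components at resolution 0.05 (finer clusters at 0.5). Neurons were clustered a second time (500 variable genes, resolution 0.7). Types were named from marker lists with at least 3 markers at a log2 fold of 1. Scrublet (scanpy 1.11.5) called 717 doublets (1.29% of cells), which were kept except in an alternative. Kept cells held 48.9% to 76.8% of a library's UMIs.

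UMIs were summed per library and type with at least 10 cells, or neuronal cluster with at least 3, and the 4 groups were fitted together in edgeR 4.0.16 (quasi-likelihood, TMM, filterByExpr, two-sided, Benjamini-Hochberg over all genes of a type, threshold 0.05). The SE of a fitted log2 fold change is its absolute value divided by the square root of the F statistic of its test. It is unreliable near a fold change of 0, as for *Irs2* in microglia, at 0 with an SE of 1.36 in the mean of both treatments. The fit was also run on simulated neuron counts with known changes in wild-type mice on tamoxifen. The simulation held no libraries that stand apart and no shared cells, so it does not show which changes the tests here could find. Replicates are separate mice. Shares carry exact Clopper-Pearson intervals at 95%, and a count of 0 a limit of 3 UMIs, both for counting error only. The study's own Wilcoxon test over single cells was not used, since cells of 1 mouse are not replicates.

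The members, the gene lists and the tests were chosen with earlier results of these data known. By rule, the 10 genes were given in every type and comparison, the 3 highest and the lowest neuronal clusters for each, and the 3 genes most like each one. One such gene and one neuronal cluster are not reported here. Alternatives were DESeq2 1.42.0, its size factors in edgeR, no filter on low counts, the compared groups alone, successive 4 library numbers as a term, all cells summed, stricter limits of 500 genes or 5% mitochondrial UMIs, doublets removed, a resolution of 0.5, thinning to 500 UMIs, and each library left out. Leaving out the 2 libraries that stood apart and the shared cells were added after seeing the data.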

Additional observations from a re-analysis of the deposited data

Results flagged for a closer look

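Of 42 groups of 4 or 5 libraries tested for a library far from the others (Dixon's ratio, in which chance flags about 1 in 20 groups), 3 were flagged. *Irs2* in neurons was 30.9 CPM in *Esr1* cKO oil replicate 4, where the other libraries of the group held 51.4 to 53 CPM. In *Esr1* cKO tamoxifen replicate 4 it was 61.7 CPM, where the others held 33.3 to 37 CPM. Each of these values was closer to the other libraries of the opposite treatment than to those of its own group. Both libraries are among the 4 that shared cell barcodes, and the part of this sharing in the *Irs2* values was not tested. *Npy1r* in mural cells was 653 CPM in *Esr1* cKO oil replicate 1, where the others held 113 to 202 CPM.

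Outside the compared types, the 198 unnamed cells, which had *Bpifa1* and *Tshb* as leading genes and 5 of 5 pars tuberalis markers, held 3 of the 10 genes above the 12.3 CPM that a count of 3 UMIs allows. *Irs2* was 148 CPM there (95% Poisson interval 104 to 205, counting error only), and *Insr* and *Glp1r* were 24.7 CPM each (9.05 to 53.7). The background was 14.4 CPM for *Irs2*, 43 for *Insr* and 13.9 for *Glp1r*, so *Insr* lay below it. The intervals of *Insr* and *Glp1r* also include 12.3 CPM. The other 7 genes had 0 UMIs in these cells.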

How the results depend on the processing

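No paired analysis was possible because the labels carry no replicate numbers, and numbers given in accession order pair nothing. A fit with each successive 4 library numbers as a term, a stand-in for the day of preparation that the labels do not give, was run as an alternative, and in it 0 members passed in each comparison and the *Npy2r* difference was 1.18 in the mean of both treatments. In the 6 comparisons, the count of tested members past the threshold was 0 under each alternative run, leaving out each library in turn included (0 to 0). The *Npy2r* difference between genotypes in neurons, a description, ran from 1.1 to 1.37 on the log2 scale in the mean of both treatments with a library left out in turn, from 0.96 to 1.51 under oil and from 1.07 to 1.36 under tamoxifen. It was 1.01 with replicate 2 of wild-type mice on oil and of *Esr1* cKO mice on tamoxifen left out, and 1.34 with replicate 3 of both groups, which stood apart, left out. The number of genes highest in neurons was 5 or 6 of 10. The highest type was the same in 24 settings for each gene but *Irs2*, highest in polydendrocytes with types from clusters at a resolution of 0.5, where the mural mean was 46.4 in place of 124 CPM since the *Gkn3*-led cells then count as mural, and in fibroblasts at a mitochondrial share under 5%, and *Glp1r*, highest in ependymal cells without wild-type tamoxifen replicate 1. Of the values for single genes, 249 kept within their spread and 11 moved, 9 of these being shares of cells thinned to 500 UMIs. Thinned, the share of cells with *Insr* in endothelial cells was 7.27% and with *Npy2r* in neurons 1.9%, with 30.9% and 19.9% of cells left out as shallower. Depth limits *Ghsr* and *Mc3r*, which were tested in no type.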
